A study of Mus musculus with 8 samples.

Results

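NF-kappaB is the dimeric transcription factor that carries signals from antigen, costimulatory and cytokine receptors to the nucleus. The transcripts of its subunits and inhibitors were followed here in mouse naive CD4+ T cells with and without deletion of Pcbp1. This gene encodes the RNA-binding protein PCBP1 (hnRNP E1). The set has 9 genes of the 24421 gene symbols in each count file, taken by name: the subunits Rel, Rela, Relb, Nfkb1 and Nfkb2, the IkappaB inhibitors Nfkbia, Nfkbid and Nfkbie, and Tnfaip3, which encodes the ubiquitin-editing enzyme A20. All 9 had a row in every file and passed the filter on low counts, with 920 to 13767 reads per gene and library.

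In resting T cells the dimers are held in the cytoplasm by IkappaB proteins. Receptor signals activate the IkappaB kinase (IKK) complex, which marks the inhibitors for degradation and frees the dimers. A slower route processes the Nfkb2 precursor to p52, which pairs with RelB. Nfkbia, Tnfaip3, Nfkb2 and Rel are themselves known targets of the pathway, so that their transcripts form feedback loops, and c-Rel is known for its part in T cell activation and in regulatory T cell development.

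The cells were isolated as naive T cells from the spleens of male C57BL/6 mice of 6 to 8 weeks. Each of the titles E1KO and E1WT has 4 libraries. The design sets wild-type mice against mice with floxed Pcbp1 and a Cre recombinase driven by Cd4, which deletes in all T cells from the thymus on, CD8 and regulatory T cells included. In all 8 samples the genotype field states the opposite of the title: Pcbp1fl/fl Cd4-Cre for the E1WT titles and Pcbp1+/+ Cd4-Cre for the E1KO titles, so by that field both groups carry the Cre. Libraries are named by title throughout, and every difference is E1KO-titled against E1WT-titled. Levels are in CPM (reads of a gene per 1e6 gene reads of the library, after TMM scaling). Pcbp1 lay at 38.3 to 41.8 CPM in the libraries titled E1KO and at 203 to 243 CPM in those titled E1WT, which goes with the titles. Its E1KO mean was 17.7% of the E1WT mean, so some transcript remained, and the protein was not measured.

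The labels also call every animal male. Xist, which is transcribed from the inactive X chromosome of female cells, lay at 365 to 425 CPM in the libraries titled E1KO and at 0.55 to 2.89 CPM in those titled E1WT. The Y-linked Ddx3y, Uty, Kdm5d and Eif2s3y stood in the E1KO titles at 47.2% to 50.7% of their E1WT mean. Sex-linked signal and title therefore cannot be told apart in any comparison. Gene counts per library ran from 28264655 to 36738202. A further 28.2% to 30.8% of all counts in a file named no gene in the E1KO titles. In the E1WT titles this share was 33.3% to 37.0%, so the titles did not overlap, and its part in any difference was not tested. T cell markers summed to 2968 to 3225 CPM in the E1KO and 3420 to 3711 CPM in the E1WT libraries, led by Cd4, while B cell markers (243 to 290 CPM over both titles) and CD8 markers (20.3 to 31.0 CPM) were low.

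The promoters are shown first. The choice by name did not use matches to the NF-kappaB consensus (kappaB). Nfkbia, Tnfaip3, Nfkb2 and Rel are known targets of the pathway, however, so matches in them were likely beforehand. RefSeq sequences on GRCm38.p6, the assembly of mm10, cover 250 bases before to 50 after each start site and were found for 7 members, in 12 windows; Relb and Nfkb1 had none. The 10-base kappaB consensus was searched on both strands, and overlapping matches were joined. Of the 7 members 6 had a match (8 of 12 windows), against 5.14% of 27025 genes and 4.51% of 32851 windows of the same length. Each match is printed 5′ to 3′ on the gene's strand with its flanks, the kappaB letters in capitals:
Nfkbia: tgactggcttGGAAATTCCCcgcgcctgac
Tnfaip3 distal: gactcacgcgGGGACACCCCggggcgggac
Tnfaip3 proximal: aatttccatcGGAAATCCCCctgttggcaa
Rel: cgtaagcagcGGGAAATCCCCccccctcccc
Nfkb2 distal: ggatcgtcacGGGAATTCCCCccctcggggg
Nfkb2 proximal: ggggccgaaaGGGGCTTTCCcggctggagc
Nfkbid distal: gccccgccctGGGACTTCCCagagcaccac
Nfkbid proximal: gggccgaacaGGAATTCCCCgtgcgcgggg
Nfkbie: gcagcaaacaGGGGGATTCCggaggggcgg

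These stretches lie at chr12:55492657-55492686 for Nfkbia, chr10:19015516-19015545 and chr10:19015403-19015432 for Tnfaip3, and chr11:23771041-23771071 for Rel. Those of Nfkb2 are chr19:46304688-46304718 and chr19:46304716-46304745, those of Nfkbid chr7:30422170-30422199 and chr7:30422215-30422244, and that of Nfkbie chr17:45555584-45555613. The Nfkbid matches belong to the second of its start sites, and Nfkb2 had further matches at its downstream start sites. The window of Rela had no match. For Nfkbia, the inhibitor that passed the test described below, the full 250 bases upstream of the start site (chr12:55492648-55492897, minus strand) are given with the match in capitals:
Nfkbia upstream: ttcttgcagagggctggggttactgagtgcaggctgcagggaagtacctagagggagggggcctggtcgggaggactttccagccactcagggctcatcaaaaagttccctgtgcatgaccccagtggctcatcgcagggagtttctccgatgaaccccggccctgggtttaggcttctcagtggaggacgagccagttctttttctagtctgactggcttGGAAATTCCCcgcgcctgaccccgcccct

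A match describes letters and not binding. Over all tested genes with a window, 634 of 10095 had a match, and 94 of these were higher and 68 lower in the E1KO titles (25.6% called, median log2 fold 0.010). The same call was made for 23.3% of all 13333 tested genes, with a median log2 fold of 0.007. Of 65 pathway genes outside the set that had a window, 16 carried a match (24.6%). The list chosen as NF-kappaB target genes gave 20 of the 65 genes and 7 of the 16 matches. Among these 16, Il2ra, Tnfrsf9 and Bcl2l1 were called higher and none lower.

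The core of the pathway differed little between the titles. Nfkbia was higher in the E1KO-titled libraries, by 1.16-fold, and was the 1 member of 9 that passed (edgeR quasi-likelihood test, adjusted p = 0.040). Across all tested genes 12.2% were called higher and 11.1% lower, so the members' count, 1 higher and 0 lower, is no more than the background. At an unadjusted p under 0.05, 2 members were higher and 1 lower. DESeq2 called 1 each way, and limma-voom 1 higher and 0 lower. Log2 folds of the 9 ran from -0.19 to 0.22 with a median of 0.018, and their median absolute value was 0.094, against 0.181 over all tested genes. Standard errors reached 0.142 among the members and 1.53 among all tested genes, so these medians do not compare genes measured equally well. The 95% intervals of all 9 lay between -0.50 and 0.37, so a difference of 2-fold was outside the interval of each member.

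**Figure D1:**
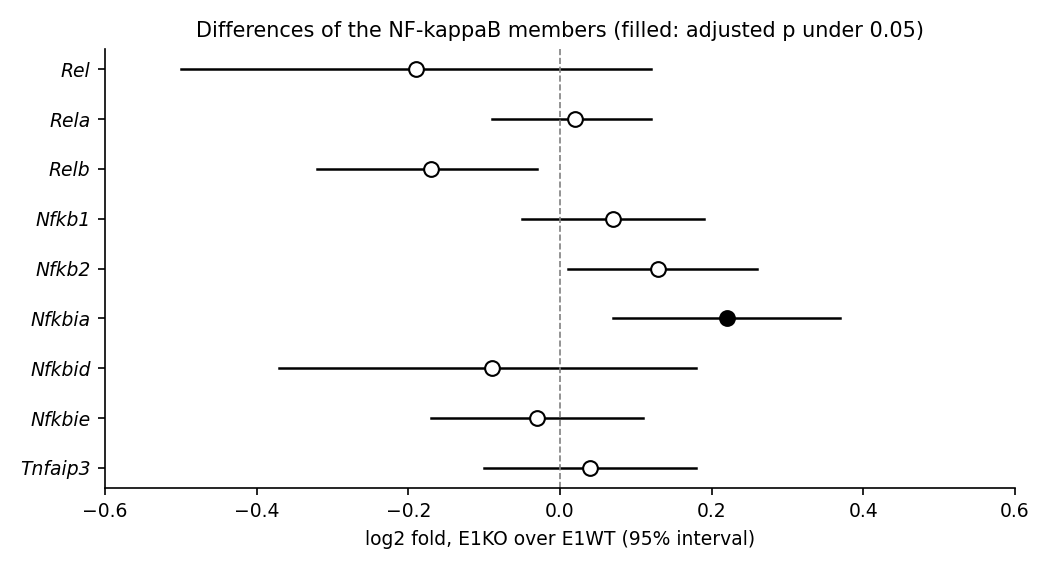
Log2 fold of each member, E1KO-titled over E1WT-titled libraries (x axis), with 95% intervals from the edgeR standard error over 4 libraries per title. Nfkbia alone is filled, for an adjusted p under 0.05, and no interval reaches beyond -0.50 or 0.37.

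Levels of different genes can be compared only per length. Length was the union of all GENCODE M21 exons of a gene, since the authors' annotation is not given in the sources used here. That union can exceed the length of the transcript expressed, and was 12061 bp for Nfkb1. The order below rests on these lengths, and which transcripts were expressed was not tested. Before the division Nfkb1 was highest, at 348 ± 18.9 CPM in the E1WT titles. Per kilobase of exon, Nfkbia was the highest member in the E1WT titles at 71.7 ± 6.23 CPM per kb (SD, n = 4). Rela followed at 52.2 ± 0.747, Nfkb1 at 28.9 ± 1.56 and Nfkb2 at 21.7 ± 1.34 CPM per kb. These 4 did not overlap with the next in order in any library. Nfkbie (16.0 ± 0.623), Nfkbid (14.9 ± 2.69) and Relb (12.9 ± 0.325 CPM per kb) formed a middle group in which Nfkbid overlapped both neighbours. Tnfaip3 stood at 10.6 ± 0.762 and Rel was last at 7.63 ± 1.40 CPM per kb. The order of the means was the same in the E1KO titles, from Nfkbia at 83.4 ± 4.34 to Rel at 6.68 ± 1.18 CPM per kb.

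**Figure D2:**
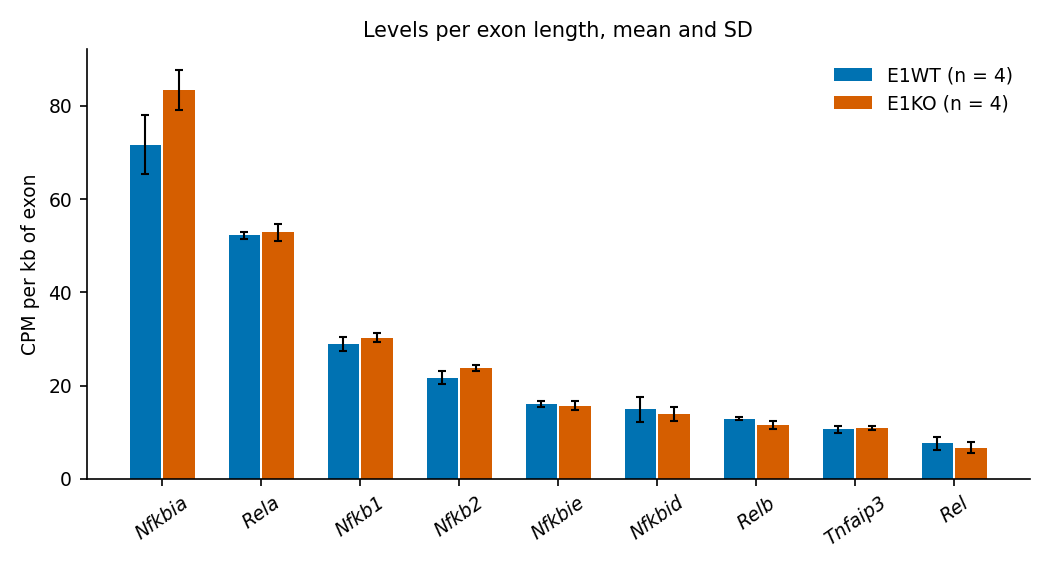
Mean level of each member per kilobase of exon (y axis, CPM per kb, from 0), in order of the E1WT mean, with SD over 4 libraries per title. Nfkbia and Rela lead and Rel is lowest in both titles, with length taken as the union of all annotated exons of a gene.

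Among the subunits with a transactivation domain, Rela, which encodes p65, lay at 157 to 168 CPM in the E1KO and 159 to 164 CPM in the E1WT titles, with overlapping ranges. Its log2 fold was 0.02 ± 0.05 (SE) with a 95% interval of -0.09 to 0.12 (edgeR adjusted p = 0.82). Its spread within titles, 0.0385 on the log2 scale, was smaller than that of all but 1.94% of tested genes. The gene lies on chromosome 19, 5637483 to 5648130 (GRCm38, plus strand).

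Relb, which pairs with the processed product of Nfkb2, was lower in the E1KO titles by a small margin that did not pass. It stood at 42.5, 41.6, 48.9 and 45.3 CPM in E1KO 1 to 4 and at 50.8, 49.0, 51.8 and 49.5 CPM in E1WT 1 to 4. All 4 E1KO libraries were below all 4 E1WT libraries, though E1KO 3 at 48.9 CPM nearly met E1WT 2 at 49.0 CPM, and Relb was the 1 member of 9 with no overlap, where 26.0% of all tested genes had none. Its log2 fold was -0.17 ± 0.06 with a 95% interval of -0.32 to -0.03, and it missed the threshold (edgeR adjusted p = 0.075). It passed in the DESeq2 test (adjusted p = 0.038), without E1KO 3 (edgeR adjusted p = 0.033) and with a per-library trend along exon length taken out (-0.234, adjusted p = 0.011). The gene lies on chromosome 7, 19606217 to 19629438 (minus strand).

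Rel, which encodes c-Rel, varied most. It stood at 61.8, 49.4, 40.6 and 47.7 CPM in E1KO 1 to 4 and at 57.8, 44.7, 55.4 and 70.1 CPM in E1WT 1 to 4. The ranges overlapped over most of their length, and the log2 fold of -0.19 ± 0.14 (95% interval -0.50 to 0.12) did not pass (edgeR adjusted p = 0.36). The log2 fold was -0.0723 without E1WT 4 and -0.312 without E1KO 1, and neither passed (edgeR adjusted p = 0.75 and 0.10). Within each title the library with the highest Rel, E1KO 1 and E1WT 4, was also the one in which long transcripts were most over-represented (Spearman rho of centred log2 CPM with exon length 0.223 and 0.317), and the lowest, E1KO 3 and E1WT 2, the one with the lowest rho (-0.319 and -0.262). Rel has 7466 bp of exon on chromosome 11, 23736847 to 23770970 (minus strand). Its spread within titles was 0.258 on the log2 scale and 0.211 once that trend was removed. With the same removal the spread of Tnfaip3, which has 7226 bp of exon, went from 0.0849 to 0.109. That of Nfkb1, with 12061 bp, went from 0.0639 to 0.0466. The part of the trend in the Rel spread was not tested.

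**Figure D3:**
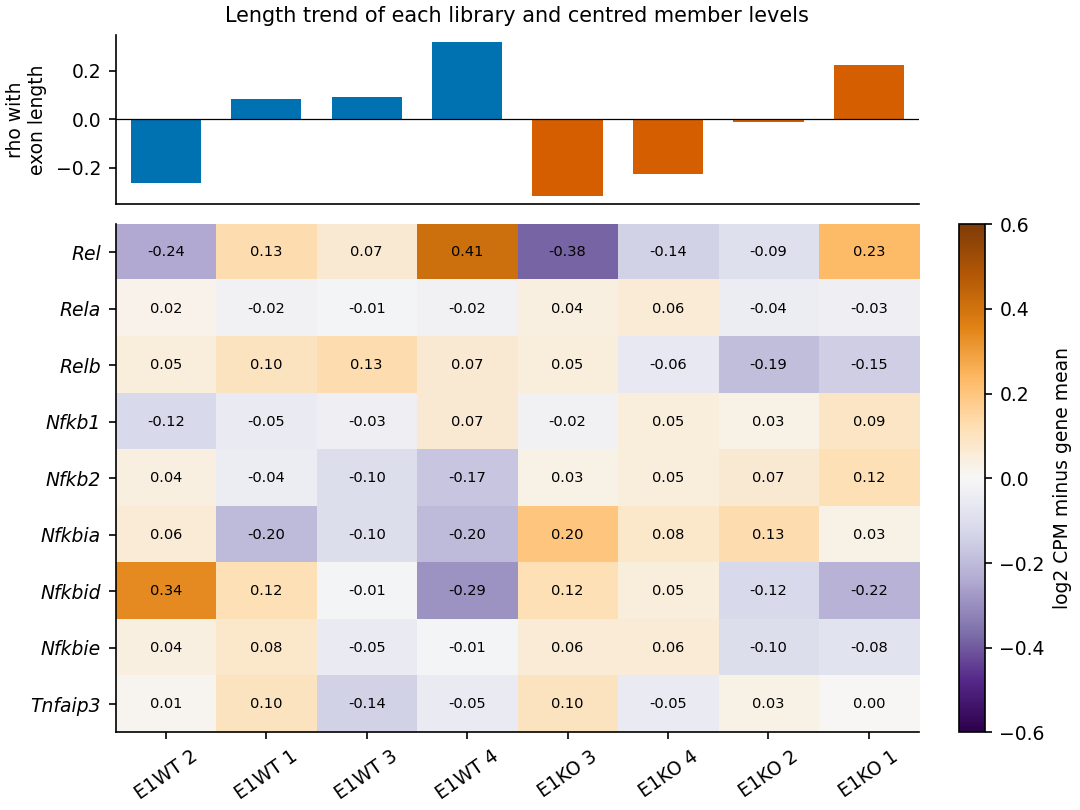
Upper bars give each library's Spearman correlation of centred log2 CPM with exon length, and cells give each member's log2 CPM minus its mean over the 8 libraries, ordered by that correlation within a title. Rel runs from -0.38 in E1KO 3 to 0.41 in E1WT 4, Nfkbid from -0.29 in E1WT 4 to 0.34 in E1WT 2, and Rela stays within 0.06 of its mean.

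The precursor subunits were slightly higher in the E1KO titles without passing. Nfkb2, the precursor of p52, stood at 113, 110, 106 and 108 CPM in E1KO 1 to 4 and at 101, 107, 97.3 and 92.8 CPM in E1WT 1 to 4, where only E1WT 2 reached into the E1KO range. Its log2 fold was 0.13 ± 0.06 (95% interval 0.01 to 0.26, edgeR adjusted p = 0.11), and without E1WT 2 it was 0.175 and passed (adjusted p = 0.045). Nfkb2 lies on chromosome 19, 46304320 to 46312385 (plus strand). Its last exon shares 299 bp with Psd on the opposite strand. A further gene on the opposite strand, AC114539.1, shares 531 bp of exon with Nfkb2 and has no row in the count files. Whether counting used strand is not stated. Reads in the Psd stretch could thus belong to either gene or fall in a closing row that names no gene. Those from AC114539.1 could be counted as Nfkb2, and the Nfkb2 values are uncertain to that extent. Psd itself was at 22.1 ± 0.833 CPM against 13.8 ± 0.953 CPM. Nfkb1, the precursor of p50 and the member with the most reads, lay at 350 to 378 CPM in the E1KO and 327 to 373 CPM in the E1WT titles, a log2 fold of 0.07 ± 0.06 (95% interval -0.05 to 0.19, edgeR adjusted p = 0.40).

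The ratio of Nfkb2 to Relb, both per kilobase, was 2.26, 2.24, 1.84 and 2.02 in E1KO 1 to 4 and 1.69, 1.86, 1.59 and 1.59 in E1WT 1 to 4. E1KO 3 and E1WT 2 overlapped. Rel to Rela ran from 0.100 to 0.161 in the E1KO and from 0.112 to 0.181 in the E1WT titles, and Nfkb1 to Rela from 0.537 to 0.612 and from 0.509 to 0.598. These ratios are descriptions that rest on the same exon lengths, and they carry no test.

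Nfkbia encodes IkappaB alpha, the inhibitor that NF-kappaB itself induces to end its signal. It stood at 127, 136, 143 and 131 CPM in E1KO 1 to 4 and at 108, 129, 116 and 108 CPM in E1WT 1 to 4. E1WT 2 lay above E1KO 1, and the other E1WT libraries lay below all E1KO libraries. The means were 134 ± 6.99 and 116 ± 10 CPM (SD, n = 4 each), and the log2 fold was 0.22 ± 0.07 with a 95% interval of 0.07 to 0.37 (edgeR adjusted p = 0.040). Leaving out E1KO 2, 3 or 4, or E1WT 1, 3 or 4, each ended the call (log2 folds 0.185 to 0.228; adjusted p in edgeR 0.075 to 0.13). It held without E1WT 2 (0.280, adjusted p = 0.0069), without E1KO 1 and with the length trend removed (adjusted p = 0.014). Nfkbia has 1610 bp of exon on chromosome 12, 55489410 to 55492647 (minus strand).

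In the E1KO titles, markers of monocytes or macrophages (85.8 to 99.6 against 39.4 to 47.6 CPM in sum, led by Lyz2; C1qb was at 0 in some libraries), dendritic cells (131 to 147 against 96.1 to 107 CPM, led by Irf8), NK cells (121 to 140 against 85.4 to 97.3 CPM, led by Eomes; Klra8 at 0 in all) and plasma cells (724 to 925 against 470 to 682 CPM, mostly Jchain) were higher without overlap. Regulatory T cell markers were too (736 to 788 against 524 to 601 CPM, led by Ikzf2), as were erythroid markers (169 to 208 against 62.8 to 84.5 CPM, led by Car1; the globin genes Hba-a1, Hbb-bs and Hbb-bt at 0 in all). Their members rose in 5 of 10, 7 of 9, 4 of 7, 1 of 5, 4 of 6 and 4 of 6 tested cases in edgeR, and 1 monocyte or macrophage marker fell. Over all tested genes 12.2% were called higher, and 26.0% had no overlap between the titles. The 1 plasma cell marker called was Jchain. Other immune cells also express NF-kappaB genes, and the part of these cells in the Nfkbia difference was not tested. More cells of a type and more RNA per cell cannot be told apart in bulk libraries.

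The other inhibitors did not pass. Nfkbie, which encodes IkappaB epsilon, lay at 45 to 50.2 CPM in the E1KO and 46.6 to 51.0 CPM in the E1WT titles (log2 fold -0.03 ± 0.06, 95% interval -0.17 to 0.11, edgeR adjusted p = 0.75). Nfkbid, whose product is the nuclear inhibitor IkappaB NS, stood at 28.8, 30.8, 36.5 and 34.7 CPM in E1KO 1 to 4 and at 36.5, 42.5, 33.2 and 27.4 CPM in E1WT 1 to 4. The E1WT libraries alone spanned more than the E1KO range, and the log2 fold was -0.09 ± 0.12 (95% interval -0.37 to 0.18, edgeR adjusted p = 0.63). Nfkbie lies on chromosome 17, 45555703 to 45563169, and Nfkbid on chromosome 7, 30421732 to 30428746, both on the plus strand. Per kilobase, the ratio of Nfkbia to Nfkbie was 4.94 to 5.73 in the E1KO and 4.0 to 4.94 in the E1WT titles. The ratio of Nfkbia to Relb was 7.18, 7.90, 7.06 and 6.98 in E1KO 1 to 4. In E1WT 1 to 4 it was 5.12, 6.37, 5.42 and 5.28. The titles did not overlap, which follows from the Nfkbia and Relb values given above and adds nothing to them. Among single genes, 26.0% of all tested had no overlap. These ratios, too, carry no test.

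Tnfaip3, which encodes A20, the enzyme that edits ubiquitin chains upstream of IKK, stood at 77.5, 79.6, 83.2 and 75.3 CPM in E1KO 1 to 4 and at 83.4, 78.2, 70.4 and 74.8 CPM in E1WT 1 to 4. The E1KO values all fell within the E1WT range. Its log2 fold was 0.04 ± 0.06 with a 95% interval of -0.10 to 0.18 (edgeR adjusted p = 0.69). The gene lies on chromosome 10, 19000910 to 19015657 (minus strand).

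**Figure D4:**
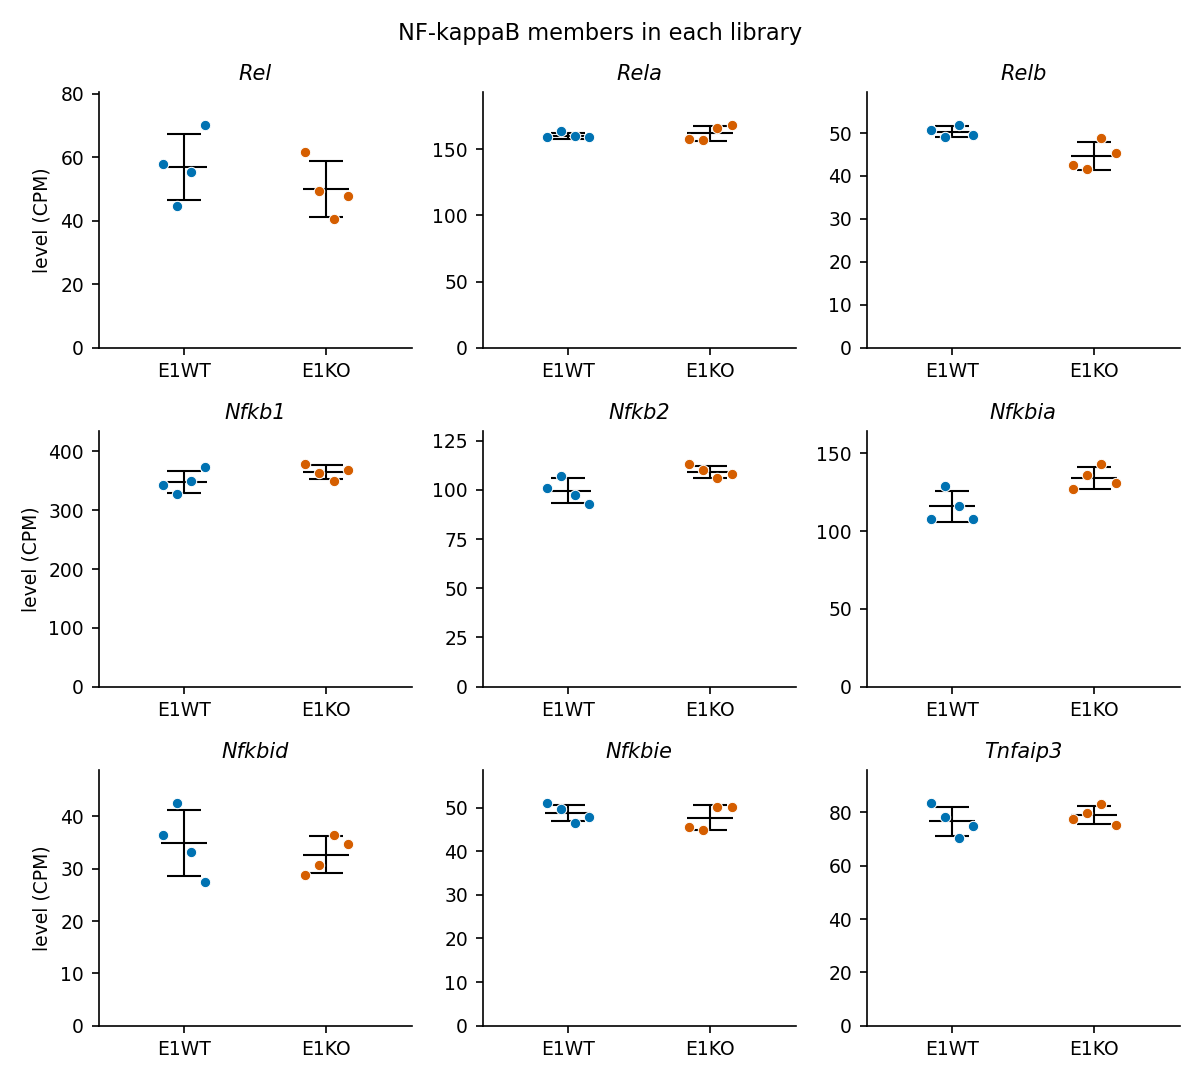
Level of each member in CPM (y axis, from 0) in the 4 libraries of each title (points), with mean and SD (bars). Relb is lower in all 4 E1KO libraries, at 41.6 to 48.9 against 49.0 to 51.8 CPM, and Nfkbia is higher in mean, at 134 against 116 CPM, with 1 E1WT library among the E1KO values.

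By pattern over the 8 libraries, the genes nearest to Nfkbia among 10428 were Anp32b, Dck and Rab18. Their root mean square distance from its centred log2 CPM was 0.0387, 0.0403 and 0.0407. Their log2 folds were 0.18, 0.21 and 0.15, and none of the 3 passed (edgeR adjusted p = 0.059, 0.055 and 0.11).

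Other genes of the pathway are given by role. Counts called in each list are to be read beside all tested genes, 12.2% higher and 11.1% lower in edgeR. Of 80 tested genes in 7 lists of receptors, adaptors, kinases, ubiquitin enzymes, further inhibitors and targets, 11 were higher and 13 lower in edgeR (30% called, against 23.3% of all tested genes; median log2 fold 0.04). In the arm from the T cell receptor, 2 of 3 genes fell: Prkcq, the kinase PKC theta, from 418 ± 13.8 to 353 ± 8.03 CPM (log2 fold -0.25 ± 0.05) and Malt1, the paracaspase, from 186 ± 8.19 to 157 ± 8.72 CPM (-0.24 ± 0.06). Both separated the titles in every library. With the trend along exon length taken out, Malt1 stood at -0.144 and was not called (adjusted p in edgeR 0.12). Cd28, the costimulatory receptor upstream of this arm, fell from 435 ± 38.4 to 333 ± 25.4 CPM. T cell markers were lower in the same libraries, with a summed level 0.872 times that of the E1WT titles and no overlap. Of these 7 markers 4 fell (Cd4 at 0.831-fold, Cd3g at 0.747-fold, Cd2 and Lck), and Cd5 rose at 1.16-fold. Prkcq stood at 0.843-fold, Malt1 at 0.845-fold and Cd28 at 0.765-fold, and the part of the T cell share in these differences was not tested.

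Among 11 IKK and upstream kinases 3 fell and 8 did not pass (median log2 fold -0.09). Ikbke, an IKK-related kinase, fell most, from 290 ± 8.95 to 199 ± 19.6 CPM (log2 fold -0.54 ± 0.07, edgeR adjusted p = 0.00024). Ikbkb, the catalytic subunit IKK beta, fell from 246 ± 5.64 to 208 ± 6.98 CPM (-0.24 ± 0.05), and on the same correction it stood at -0.139 and was not called (adjusted p in edgeR 0.24). Map3k14, the NIK kinase of the slower route, fell by 0.18 ± 0.05 on the log2 scale. Leaving out E1KO 1, 3 or 4, or E1WT 1 or 3, each ended that call (adjusted p in edgeR 0.056 to 0.087).

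The list of TRAF, cIAP, RIPK1 and LUBAC genes had 2 of 12 lower and 1 higher, all of them subunits of LUBAC, the complex that builds linear ubiquitin chains. Rbck1, which encodes its HOIL-1 subunit, stood at 115, 122, 134 and 122 CPM in E1KO 1 to 4 and at 238, 229, 236 and 229 CPM in E1WT 1 to 4. This was the largest fall among the 80 genes (log2 fold -0.92 ± 0.06, edgeR adjusted p = 1.7e-06), and the groups were far apart. Rbck1 lies on chromosome 2, 152316334 to 152332653 (minus strand). Rnf31, the catalytic subunit HOIP, fell by 0.20 ± 0.06 and overlaps Irf9 by 123 bp, and Sharpin rose by 0.30 ± 0.08 on the log2 scale. The Rnf31 call ended on leaving out E1KO 3 or 4, or E1WT 1, 2 or 3 (adjusted p in edgeR 0.058 to 0.082). That of Sharpin ended on leaving out E1KO 2, 3 or 4, or E1WT 1, 3 or 4 (0.057 to 0.074).

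Of the partners of A20 and other brakes 1 of 11 fell, the ubiquitin ligase gene Peli1, from 395 ± 21.8 to 333 ± 10.5 CPM. Of the further IkappaB genes Nfkbib, Nfkbiz and Bcl3, 0 of 3 passed in edgeR, with 1 higher and 1 lower at an unadjusted p under 0.05. DESeq2 called 1 lower and limma-voom 0 of 3. Nfkbiz was nearest at a log2 fold of -0.32 ± 0.12 (edgeR adjusted p = 0.075).

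Receptors and their adaptors went both ways, with 5 of 17 higher and 4 lower (median log2 fold 0.32). Tnfrsf9, the costimulatory receptor 4-1BB, rose from 31.9 ± 2.13 to 56.7 ± 0.484 CPM (log2 fold 0.83 ± 0.06). Its gene span shares 28781 bp with Camta1 on the other strand, which averaged 5.82 CPM over the 8 libraries. Il1rl1, the IL-33 receptor, rose from 6.21 ± 0.795 to 14.2 ± 2.02 CPM. Irak4, a kinase of the interleukin-1 and Toll-like receptor route, rose by 0.35 ± 0.06, but overlaps Twf1 on the other strand. Tnfrsf9 and Il1rl1 are also expressed by regulatory T cells, whose markers were higher in the same libraries, and the part of those cells was not tested.

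Of 23 tested target genes of NF-kappaB, 5 rose and 1 fell (26.1% called, against 23.3% of all tested genes, median log2 fold 0.15). Il2ra, the interleukin-2 receptor alpha chain, rose from 91.2 ± 3.81 to 137 ± 2.53 CPM (log2 fold 0.59 ± 0.05), Cd83 from 20.9 ± 2.01 to 31.8 ± 2.03 CPM (0.61 ± 0.09), and Bcl2l1, which encodes the survival protein BCL-XL, from 26.5 ± 1.29 to 37.1 ± 1.96 CPM (0.48 ± 0.07). Tap1, the peptide transporter, fell from 417 ± 24.1 to 278 ± 9.14 CPM and overlaps Psmb9 on the other strand. Ccl5 and Icam1, named after their values were seen, rose by 1.06 ± 0.17 and 0.40 ± 0.07. Il2ra is also among the regulatory T cell markers, Cd83 is expressed by dendritic cells and Ccl5 by NK cells, and markers of these cells were higher in the same libraries. Of 14 tested immediate early genes, which respond to stimulation and handling, 6 were lower and 1 higher (50% called, median -0.23, Egr3 at -0.51 ± 0.06). Over all tested genes 11.1% were called lower and 12.2% higher.

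**Figure D5:**
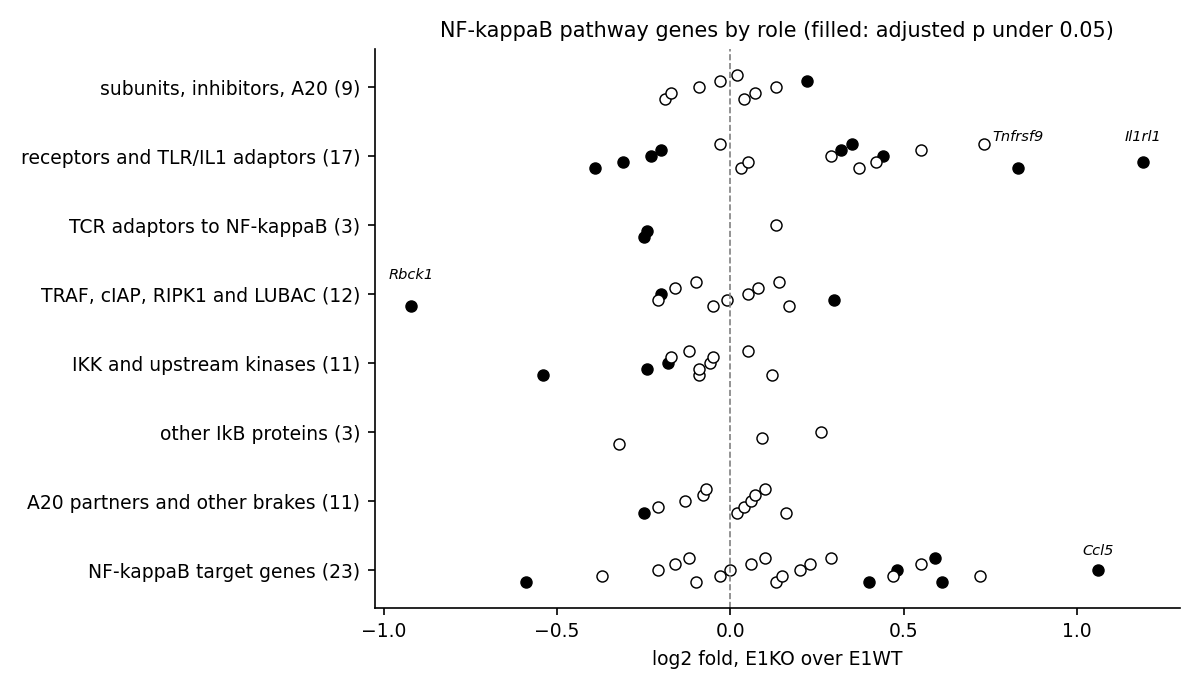
Log2 fold of each tested gene (points, x axis), E1KO-titled over E1WT-titled, for the 9 members (top row) and 7 lists of other pathway genes, with the number tested in brackets and called genes filled. The members stay between -0.19 and 0.22, while Rbck1 reaches -0.92 and Il1rl1 1.19.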

How the data were processed

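Naive CD4+ T cells were profiled by RNA sequencing (75 bp paired ends, from 50 ng of RNA, per the labels' protocols). Per the submitters' processing notes, the authors used TopHat2 2.1.0, HTSeq 0.9.1 and mm10. Annotation, filters and strand setting: not given in the sources used here. Each library has 1 deposited table of raw counts by gene symbol, and the 5 closing rows that name no gene were left out. Nothing in the labels says that replicates came from separate mice, so the p-values rest on a spread between libraries that may be technical. Pairs within a title differed beyond sampling noise (chi-square per degree of freedom 4.03 to 65.8).

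Genes were tested in edgeR 4.0.16 (R 4.3.3) with TMM scaling, the default filter (count minimum 10, total 15; 13333 genes left), the quasi-likelihood test and Benjamini-Hochberg adjustment over all tested genes at 0.05. Standard errors come from its F statistic and 95% intervals from its degrees of freedom. Log2 CPM used a prior count of 2. Symbols were matched to GENCODE M21 on GRCm38 (23376 by name, 668 by RefSeq synonym, 377 not). The members, gene lists and tests were chosen with earlier results of these data known. Named genes are the members, the checks of the labels, the called genes of each list by rising p, at most 4 (with no call, the gene of lowest p), the nearest genes by pattern, and the marker genes that are highest or at 0. Alternatives were DESeq2 1.42.0 and its size factors, limma-voom 3.58.1, no filter, a filter at 1 CPM in 4 libraries, the replicate number as a block, libraries left out, autosomal genes and a loess trend along exon length removed. Figures were drawn with matplotlib.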

Additional observations from a re-analysis of the deposited data

How the results depend on the processing

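Over 17 alternatives, 139 of the 153 values for the 9 members kept their direction and their side of the threshold. Relb was called under the DESeq2 test (log2 fold -0.185, 1 member lower in place of 0) and with the exon-length trend removed (-0.234, 1 lower), where Rela turned to -0.0456 (edgeR adjusted p = 0.44). With each library left out in turn, log2 folds ran from 0.185 to 0.280 for Nfkbia, from -0.220 to -0.141 for Relb, from 0.102 to 0.175 for Nfkb2, from -0.195 to 0.0203 for Nfkbid and from -0.000754 to 0.0819 for Tnfaip3. For the other members they ran from -0.312 to -0.0723 for Rel, from 0.00173 to 0.0337 for Rela, from 0.0448 to 0.106 for Nfkb1 and from -0.0577 to -0.0051 for Nfkbie, none called. Nfkbid turned without E1WT 2 and Tnfaip3 without E1WT 3, neither called. Counts of called members were then 0 to 2 higher and 0 to 1 lower. With the replicate block, Nfkbia was at 0.219 and not called (edgeR adjusted p = 0.054), 0 members were higher, and calls over all genes went from 1623 to 1151 higher and from 1485 to 1005 lower. The block had no basis beyond the number: same-numbered libraries correlated at -0.0993 to 0.0141 in their deviations from the title means, and none correlated best with its own number. Leaving out E1KO 1 and E1WT 4 together kept the Nfkbia call. Where calls moved, the cause was not tested. Counts of called pathway genes stayed at 10 to 14 higher and 9 to 19 lower. Each member had 920 or more reads in every library, and the effect of depth on the calls was not tested.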
